A study of Mus musculus with 6 samples.

Results

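C-type lectin receptors of the dectin and Mincle gene clusters are surface proteins with which macrophages bind sugars and lipids of fungi, mycobacteria and dying cells. The RNA of 9 such receptors was examined in resting bone-marrow-derived macrophages (BMDMs), namely *Clec4a1*, *Clec4a2*, *Clec4a3*, *Clec4d*, *Clec4e*, *Clec4n*, *Clec5a*, *Clec7a* and *Clec12a*. They were picked by gene name, with no threshold on a measured value, and all 9 were found among the 22248 genes listed in the deposited expression matrix. BMDMs are macrophages grown in culture from bone marrow cells in the presence of macrophage colony-stimulating factor. The libraries came from C57BL/6 mice that the labels place at postnatal week 10, and none of the cultures was given a stimulus. The 3 control libraries came from Lyz2cre mice and the 3 CITED2-deficient libraries from Cited2 fl/fl:Lyz2cre mice. Both groups carry 1 Lyz2cre allele, which makes Cre recombinase from the *Lyz2* locus in myeloid cells, and in the second group Cre removes the floxed part of *Cited2*, a transcriptional coregulator. The labels number the libraries from 1 to 3 in each group but do not tie them to single mice, so the tests measure the spread between these libraries.

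Members of this receptor family differ in how they signal. Dectin-1, the product of *Clec7a*, binds beta-glucan of fungal walls and carries a tyrosine motif in its own cytoplasmic tail that recruits the kinase Syk. Mincle (*Clec4e*), MCL (*Clec4d*) and dectin-2 (*Clec4n*) have no such motif and pair with the Fc receptor gamma chain (*Fcer1g*), while CLEC5A pairs with the adaptor DAP12 (*Tyrobp*). Downstream of Syk, a complex of CARD9, BCL10 and MALT1 turns on NF-kB and cytokine genes. DCIR (*Clec4a2*) and CLEC12A carry an inhibitory tyrosine motif that recruits the phosphatases SHP-1 (*Ptpn6*) and SHP-2 (*Ptpn11*). *Clec4a1* and *Clec4a3* encode relatives of DCIR in the mouse.

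All 9 genes lie on mouse chromosome 6 at 3 separate places (mm10, GENCODE vM21). From left to right the first large cluster spans chr6:122921848-123289870, or 0.368 Mb, and holds 6 members. They are *Clec4a1* (ENSMUSG00000049037, chr6:122921848-122934619, plus strand), *Clec4a3* (ENSMUSG00000043832, chr6:122952515-122969875, plus), *Clec4a2* (ENSMUSG00000030148, chr6:123106428-123143999, plus), *Clec4n* (ENSMUSG00000023349, chr6:123229843-123247021, plus), *Clec4d* (ENSMUSG00000030144, chr6:123262111-123275265, plus) and *Clec4e* (ENSMUSG00000030142, chr6:123281789-123289870, minus). The second spans chr6:129342691-129472779 and holds *Clec12a* (ENSMUSG00000053063, chr6:129342691-129365303, plus) and *Clec7a* (ENSMUSG00000079293, chr6:129461591-129472779, minus). *Clec5a* (ENSMUSG00000029915, chr6:40574894-40585821, minus) lies alone, 82.3 Mb to the left of *Clec4a1*. The annotation types *Clec7a* as a polymorphic pseudogene and the other 8 as protein-coding.

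RefSeq promoter windows on the same assembly (GRCm38.p6), each of 250 bases before and 50 bases after a transcription start, were found for 8 of the 9 genes, and *Clec4n* was not in that table. Windows of 4 genes are shown because their RNA moved in opposite directions. *Clec7a* had the largest rise of the 9, *Clec4a2* had the largest fall among the 8 with a window, and *Clec4d* and *Clec4e* lie side by side with 6.52 kb between them and moved in opposite directions. Each is written 5′ to 3′ on the strand of its gene, at chr6:129472730-129473029 (minus) for *Clec7a*, chr6:123122440-123122739 (plus) for *Clec4a2*, chr6:123261857-123262156 (plus) for *Clec4d* and chr6:123289822-123290121 (minus) for *Clec4e*. The RefSeq start of *Clec4a2* lies inside the gene's GENCODE span. Capitals mark matches to any of 7 motifs searched on both strands.
Clec7a: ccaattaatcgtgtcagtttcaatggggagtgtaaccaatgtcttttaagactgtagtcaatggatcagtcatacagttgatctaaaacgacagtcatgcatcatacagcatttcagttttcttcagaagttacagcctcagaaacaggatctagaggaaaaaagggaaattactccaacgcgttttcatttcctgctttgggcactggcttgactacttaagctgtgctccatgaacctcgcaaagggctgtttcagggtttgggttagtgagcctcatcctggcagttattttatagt
Clec4a2: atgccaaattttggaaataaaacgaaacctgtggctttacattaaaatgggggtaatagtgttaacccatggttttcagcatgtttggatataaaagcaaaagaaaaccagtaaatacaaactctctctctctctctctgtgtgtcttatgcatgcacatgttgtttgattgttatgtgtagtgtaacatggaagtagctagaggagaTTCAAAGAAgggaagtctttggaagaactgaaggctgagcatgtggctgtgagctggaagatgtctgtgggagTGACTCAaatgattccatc
Clec4d: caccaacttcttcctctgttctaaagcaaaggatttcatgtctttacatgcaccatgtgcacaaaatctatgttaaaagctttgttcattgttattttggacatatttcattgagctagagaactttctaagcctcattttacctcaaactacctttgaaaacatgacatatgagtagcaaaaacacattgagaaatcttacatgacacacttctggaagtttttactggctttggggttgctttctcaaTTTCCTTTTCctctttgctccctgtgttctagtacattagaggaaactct
Clec4e: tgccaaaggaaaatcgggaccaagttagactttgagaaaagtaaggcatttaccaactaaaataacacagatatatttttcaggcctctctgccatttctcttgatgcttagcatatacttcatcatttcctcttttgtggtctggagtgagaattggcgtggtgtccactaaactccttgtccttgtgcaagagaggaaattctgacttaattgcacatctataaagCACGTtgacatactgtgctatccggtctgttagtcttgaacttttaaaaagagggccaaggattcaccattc

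The motifs were AGGAAGT (PU.1), TTGCNNNAA (C/EBP), the interferon-stimulated response element (a pair of GAAA runs parted by any 2 bases), TGANTCA (AP-1), TTCNNNGAA (STAT and BCL6), ACGTG (the core of the hypoxia response element) and CACGTG (E-box). Every E-box match also contains the hypoxia core. Of the 32851 mouse windows, 9.35% held AGGAAGT, 9.56% TTGCNNNAA, 3.44% the interferon element, 7.81% TGANTCA, 8.3% TTCNNNGAA, 19.6% ACGTG and 7.15% CACGTG. In *Clec4a2* the letters TTCAAAGAA began 42 bases before the start and TGACTCA began at transcribed base 32. The window of *Clec4d* held the interferon element on the opposite strand from its first transcribed base, and that of *Clec4e* held the hypoxia core on the opposite strand 22 bases before the start. *Clec12a* had TGAATCA 213 bases before its RefSeq start, which also lies inside the gene's GENCODE span. The windows of *Clec4a1*, *Clec4a3*, *Clec5a* and *Clec7a* held none of these letters. A match here is a run of letters and not a measured binding site.

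The level of each gene was given by the authors as FPKM (fragments per kilobase of transcript, scaled to the size of the library). FPKM is divided by length, so levels of different genes can be set beside each other, though only roughly. The length used matched the mean over all annotated transcripts of a gene, which need not be that of the transcripts expressed. Differences were tested on log2(FPKM + 1) with limma over 11687 genes whose mean FPKM was 1 or more, and this scale understates the change of low genes. P-values were adjusted over all of these genes by the Benjamini-Hochberg method, with 0.05 as the threshold. Log2 differences (log2 fold changes) are CITED2-deficient minus control on this scale and are given with their standard error (SE), and means with the SD of 3 libraries.

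*Cited2* was at 71.7, 79.3 and 75.5 FPKM in control replicates 1 to 3 and at 9.27, 7.22 and 7.53 FPKM in the CITED2-deficient replicates, so each library matched its label. The recovered depth was 17289286 to 18952077 fragments in control libraries and 22583995 to 26100410 in CITED2-deficient libraries. The median log2 difference of all tested genes was -0.10. Median-ratio scaling, which sets the typical gene near no change, brought it to -0.0069. Of 9 macrophage markers, all were above 9 FPKM in every library. Of these, *Fcgr1* rose 2.80-fold, 6 fell, with *Lyz2* and *Mrc1* more than 2-fold lower, and 2 did not pass the threshold. Over all tested genes 16.7% were higher and 34.6% lower. *Lyz2* was at 30.6 to 32.5 FPKM in control and at 9.39 to 10.0 FPKM in CITED2-deficient libraries. It is also the locus that carries Cre in both groups, and the cause of its lower level was not tested. The summed level of the 9 markers was 5976 to 6044 FPKM in control and 5386 to 5477 FPKM in CITED2-deficient libraries.

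Of the 9 lectin genes, 3 rose past the threshold, 4 fell past it and 2 did not pass, beside 51.3% of all tested genes that passed, 16.7% higher and 34.6% lower. *Clec7a*, *Clec4e* and *Clec12a* rose, and *Clec4n*, *Clec4a2*, *Clec4a1* and *Clec4d* fell. The median log2 fold change of the 9 was 0.011, the value of *Clec4a3*, against -0.10 over all tested genes. It depended on the filter. With a minimum mean FPKM of 5, which left 8 of the 9, it was -0.15, against -0.0998 over all genes then tested. The levels of the 2 groups did not overlap for 7 of the 9, beside 59.9% of all tested genes. A difference of at least 2-fold on the tested scale was reached by 1 of the 9, *Clec4n*, beside 5.26% of all tested genes, 3.72% higher and 1.54% lower. After median-ratio scaling 5 of the 9 were higher and 4 were lower, beside 44.4% of all genes past the threshold, 23.1% higher and 21.3% lower.

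**Figure D1:**
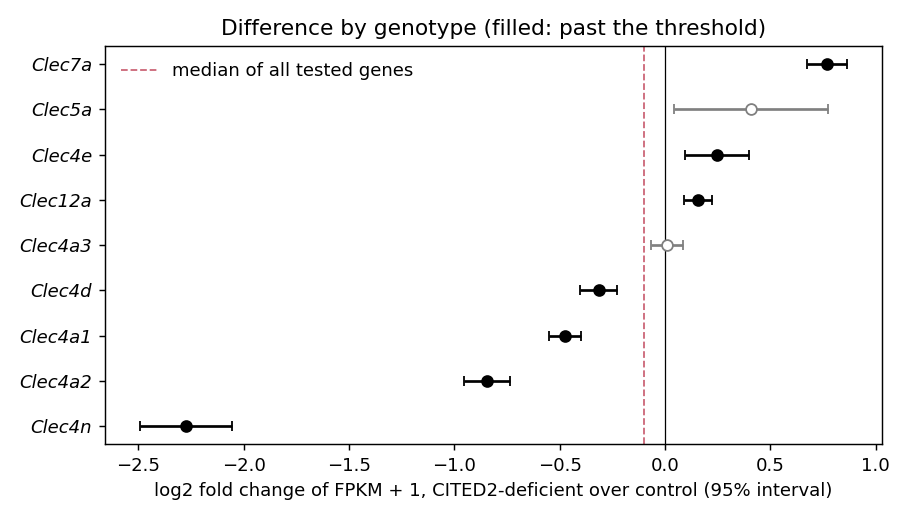
Log2 fold change of FPKM + 1 for each of the 9 lectin genes (x axis, CITED2-deficient over control), with the 95% interval from limma as a bar. Filled points passed an adjusted p of 0.05 and open points did not. The dashed line is the median of all tested genes at -0.10. The points run from -2.27 for *Clec4n* to 0.77 for *Clec7a*.

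*Clec7a*, the beta-glucan receptor dectin-1, showed the largest rise. Its level was 188, 204 and 187 FPKM in control replicates 1 to 3 and 333, 340.1 and 316 FPKM in CITED2-deficient replicates 1 to 3. Every CITED2-deficient library was thus more than 100 FPKM above every control library. The mean went from 193 ± 9.37 to 330 ± 12.3 FPKM, which is 1.71-fold higher. On the log2 scale the difference was 0.77 (SE 0.042, 95% interval 0.67 to 0.86, limma adjusted p = 7.12e-07). Between 5210 and 5258 fragments stood behind the control values and 11345 to 12514 behind the CITED2-deficient values.

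Among the receptors that pair with the Fc receptor gamma chain, *Clec4n*, *Clec4d* and *Clec4e* did not move alike. *Clec4n*, which encodes the mannan receptor dectin-2, was at 33.8, 30.9 and 29.7 FPKM in control replicates 1 to 3. In CITED2-deficient replicates 1 to 3 it was at 4.78, 5.99 and 6.45 FPKM, so that the highest of these was under the lowest control by more than 20 FPKM. The mean fell from 31.4 ± 2.10 to 5.74 ± 0.862 FPKM, or 5.48-fold, a log2 difference of -2.27 (SE 0.096, 95% interval -2.49 to -2.06, limma adjusted p = 1.22e-07). By size of the log2 fold change *Clec4n* was number 82 of the 11687 tested genes. Its level was above that of 68.8% of tested genes in control BMDMs and above that of 29.0% in CITED2-deficient BMDMs. Its values rest on 501 to 599 fragments in control libraries and on 114 to 158 fragments in CITED2-deficient libraries.

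*Clec4d*, the gene of MCL, was the highest of the 9 in control BMDMs, at 334, 344 and 336 FPKM in replicates 1 to 3. It was at 286, 258 and 273 FPKM in CITED2-deficient replicates 1 to 3, below all control libraries. The mean was 338 ± 5.46 against 272 ± 14.2 FPKM, 1.24-fold lower, a log2 difference of -0.31 (SE 0.039, limma adjusted p = 0.000153). *Clec4e*, the gene of Mincle, a receptor for mycobacterial cord factor, is the direct neighbor of *Clec4d* and was at 15.0, 14.6 and 14.0 FPKM in control replicates 1 to 3. It was at 17.8, 18.8 and 15.9 FPKM in CITED2-deficient replicates 1 to 3. The groups did not overlap, although CITED2-deficient replicate 3 came within 1 FPKM of the highest control library. The mean rose from 14.5 ± 0.475 to 17.5 ± 1.44 FPKM, or 1.20-fold, a log2 difference of 0.25 (SE 0.067, limma adjusted p = 0.0128). With each library left out in turn the adjusted p of *Clec4e* lay between 0.00485 and 0.0469.

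**Figure D2:**
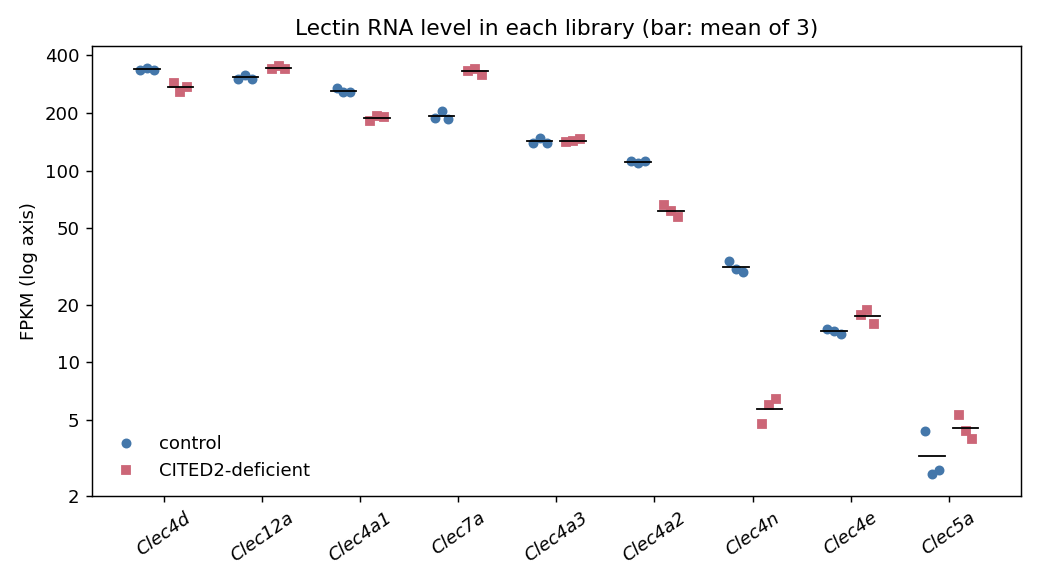
FPKM of the 9 lectin genes in every library (y axis, log scale), ordered from left to right by their mean in control BMDMs. Circles are the 3 control libraries, squares the 3 CITED2-deficient libraries and the short bars group means. *Clec7a* squares lie above the circles, *Clec4n* squares lie far below them, and circles and squares of *Clec4a3* and *Clec5a* overlap.

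Of DCIR and its relatives, *Clec4a2* and *Clec4a1* fell and *Clec4a3* did not pass. *Clec4a2*, which encodes the inhibitory receptor DCIR, was at 112, 110.1 and 113 FPKM in control replicates 1 to 3 and at 66.2, 62.0 and 57.5 FPKM in CITED2-deficient replicates 1 to 3. The control libraries agreed within 3 FPKM, and all CITED2-deficient libraries lay more than 40 FPKM below them. The mean fell 1.81-fold, from 112 ± 1.50 to 61.9 ± 4.32 FPKM, a log2 difference of -0.84 (SE 0.049, 95% interval -0.95 to -0.73, limma adjusted p = 1.09e-06). Of the 2959 stretches of 50 bases in its transcripts, 6.15% also occur in *Clec4a4* or *Clec4b1*, so fragments from these places could have been assigned to more than one gene. None of the other 8 shared a stretch of 50 bases with another lectin gene, and the exons of none of the 9 overlap those of another gene on either strand.

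*Clec4a1* was at 270.0, 259 and 256 FPKM in control replicates 1 to 3 and at 182, 192 and 190.0 FPKM in CITED2-deficient replicates 1 to 3. The groups were separated by more than 60 FPKM. The mean went from 262 ± 7.30 to 188 ± 5.59 FPKM, 1.39-fold lower, a log2 difference of -0.48 (SE 0.034, limma adjusted p = 4.02e-06). *Clec4a3*, the next gene on the same strand, 17.9 kb further along, was at 140.1, 147 and 139 FPKM in control replicates 1 to 3. Its level in CITED2-deficient replicates 1 to 3 was 141, 142 and 147 FPKM, inside the control range. The log2 fold change was 0.011 with a 95% interval of -0.065 to 0.086 (adjusted p = 0.810 from limma), so a difference of the size seen for *Clec4a1* lies outside the interval. After median-ratio scaling it passed the threshold at 0.11 (adjusted p = 0.0315), and the sign was negative without CITED2-deficient replicate 3 (-0.0061), control replicate 1 (-0.00023) or control replicate 3 (-0.0039).

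*Clec12a*, the gene of an inhibitory receptor that binds uric acid crystals, was at 303, 317 and 302 FPKM in control replicates 1 to 3. It was at 339, 351 and 339 FPKM in CITED2-deficient replicates 1 to 3, above every control library. The mean rose by a small step, from 307 ± 8.29 to 343 ± 6.84 FPKM or 1.12-fold, a log2 difference of 0.16 (SE 0.030, 95% interval 0.089 to 0.23, limma adjusted p = 0.00218). It was thus one of 2 members with an inhibitory motif that moved in opposite directions, since *Clec4a2* fell.

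*Clec5a*, whose product signals through DAP12, was the lowest of the 9 in both groups. It was at 4.38, 2.61 and 2.74 FPKM in control replicates 1 to 3 and at 5.30, 4.40 and 4.0 FPKM in CITED2-deficient replicates 1 to 3. Control replicate 1 lay within the CITED2-deficient range, and the other 2 control libraries lay below it. The mean was 3.24 ± 0.986 against 4.56 ± 0.666 FPKM, and the log2 difference of 0.41 (SE 0.16, 95% interval 0.042 to 0.78) did not pass (limma adjusted p = 0.0613). Without control replicate 1 the log2 fold change was 0.59 (adjusted p = 0.00598), and in median-ratio, quantile and fragment-based fits it also passed, with adjusted p of 0.0315, 0.0350 and 0.0202. These values rest on 79 to 236 fragments per library, a range that holds the 114 to 158 fragments of *Clec4n* in CITED2-deficient libraries and lies below those of the other members.

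Taken as a sum, the 9 genes stood at 1381 to 1430 FPKM in control libraries and slightly lower, at 1349 to 1375 FPKM, in CITED2-deficient libraries. The makeup of that sum differed more than its size. The share of *Clec7a* in that sum was 13.4 to 14.3% in control and 23.5 to 24.7% in CITED2-deficient libraries. Over the same libraries *Clec4d* had 23.9 to 24.3% and then 18.8 to 20.8%, and *Clec4a1* had 18.1 to 19.3% and then 13.2 to 14.1%. *Clec4a2* held 7.70 to 8.19% and then 4.27 to 4.81%, and *Clec4n* held 2.15 to 2.41% and then 0.348 to 0.478%. By type of receptor, the members that pair with the Fc receptor gamma chain made up 27.3 to 27.5% in control and 20.6 to 22.5% in CITED2-deficient libraries. *Clec4a1*, *Clec4a2* and *Clec4a3* together made up 36.1 to 37.3% and then 28.3 to 29.2%. The 2 genes with an inhibitory motif, *Clec4a2* and *Clec12a*, summed to 29.6 to 30.1% and 29.4 to 30.0%, ranges that overlap. These shares are descriptions and were not tested.

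**Figure D3:**
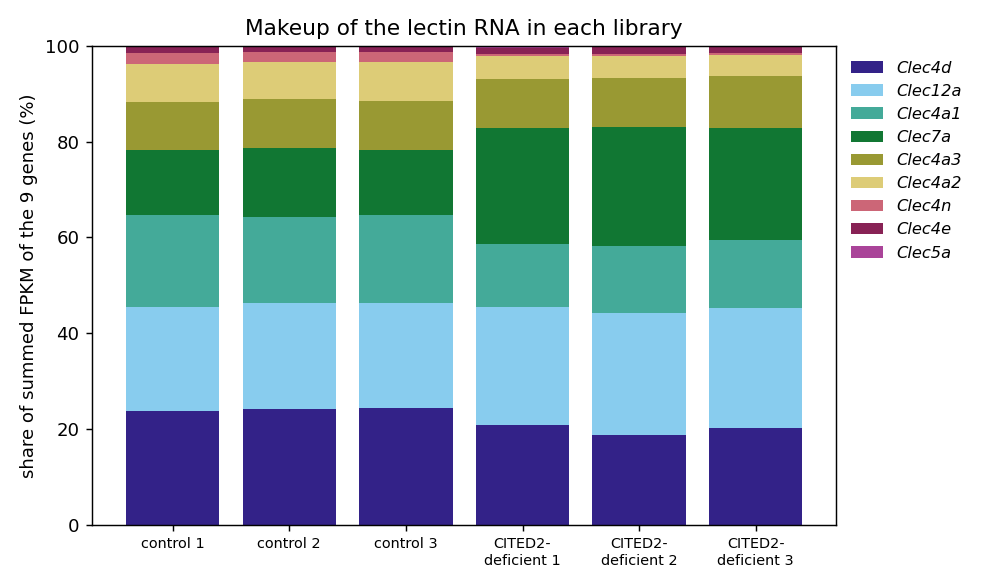
Share of each of the 9 lectin genes in their summed FPKM (y axis, percent) in each of the 6 libraries. The *Clec7a* segment is 13.4 to 14.3% in the control bars and 23.5 to 24.7% in the CITED2-deficient bars. The *Clec5a* segment, at most 0.385%, is too thin to be seen.

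The order of the levels shifted with genotype. In control BMDMs it was *Clec4d*, *Clec12a*, *Clec4a1*, *Clec7a*, *Clec4a3*, *Clec4a2*, *Clec4n*, *Clec4e* and *Clec5a* from high to low, and no neighbors in this order overlapped over the libraries. In CITED2-deficient BMDMs *Clec12a* and *Clec7a* led with overlapping ranges, followed by *Clec4d*, *Clec4a1*, *Clec4a3*, *Clec4a2* and *Clec4e*. *Clec4n* came after *Clec4e* and overlapped *Clec5a* at the bottom. Of 8 ratios between members that were computed, that of the dectins shifted most, with *Clec7a* at 5.58 to 6.61 times the FPKM of *Clec4n* in control libraries and at 49.1 to 69.8 times in CITED2-deficient libraries. Mincle RNA was at 0.444 to 0.473 times the level of *Clec4n* in control libraries and at 2.47 to 3.72 times in CITED2-deficient libraries. *Clec4d* stood at 22.3 to 23.9 times *Clec4e* in control and at 13.7 to 17.1 times in CITED2-deficient libraries. These pairs were picked after their values were seen and carry no test.

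Spread between replicates was small for the abundant members. The SD was 1.34 to 4.85% of the control mean for the 6 genes above 100 FPKM and reached 30.4% for *Clec5a*. In CITED2-deficient BMDMs it ranged from 1.99% for *Clec12a* to 15.0% for *Clec4n*. The 7 members past the threshold passed it in all 6 fits that left out 1 library. These included the fit without CITED2-deficient replicate 1, the library with the highest fibroblast marker RNA. That fit does not remove the fibroblast difference. *Col1a1* was still at 62.0 and 62.6 FPKM in CITED2-deficient replicates 2 and 3, against 14.2 to 16.6 FPKM in control libraries.

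Markers of other cell types were compared because the RNA came from whole cultures, where fewer cells of a type and less RNA per cell cannot be told apart. All 6 tested fibroblast or stromal markers of 8 were higher, with *Col1a1*, *Col1a2* and *Col3a1* more than 2-fold up on the tested scale, *Lum* and *Thy1* below 1 FPKM in every library, and a sum of 42.4 to 50.6 FPKM in control and 170 to 540 FPKM in CITED2-deficient libraries. Of 6 monocyte markers, 5 were higher, including *Ly6c2*, *Plac8* and *Spn* at more than 2-fold, while *F13a1* was lower (log2 fold change -2.80). The sum was 215 to 233 FPKM in control and 175 to 191 FPKM in CITED2-deficient libraries. *F13a1* made up most of the control sum, at 174 to 186 FPKM in control and 23.8 to 25.6 FPKM in CITED2-deficient libraries. The sum thus fell through this 1 gene, while the other 5 rose. Of 10 tested neutrophil and precursor markers 3 were higher, among them *Retnlg*, and 6 were lower, among them *Mpo*, *Elane* and *Prtn3*. The list summed to 744 to 813 FPKM in control and 671 to 790 FPKM in CITED2-deficient libraries. *Ly6g* and *Cxcr2* were below 1 FPKM throughout, with overlapping groups for *Ly6g*. *Cxcr2* was higher without overlap, at 0.201 to 0.240 FPKM in control and 0.852 to 0.942 FPKM in CITED2-deficient libraries. Of 2 tested dendritic cell markers, *Itgax* was higher and *Batf3* did not pass, and the summed level was 22.1 to 24.7 and 27.4 to 31.7 FPKM. *Flt3*, *Zbtb46* and *Siglech* were below 1 FPKM throughout with overlapping groups. *Xcr1* and *Ccr7* were also below 1 FPKM but higher without overlap. *Clec9a*, below the filter, was at 0.231 to 0.592 FPKM in control and at 1.01 to 1.36 FPKM in CITED2-deficient libraries. B cell, T or NK cell and mast cell markers each summed, list by list, to at most 2.53 FPKM per library, and the 1 tested gene among them, *Kit*, did not pass. These counts stand beside 16.7% higher and 34.6% lower over all tested genes. What part the marker shifts have in the lectin values was not tested.

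The genes around the lectins did not move as 1 block. Within 0.5 Mb of the 3 sites, 64 other genes were listed, 22 were tested, 5 were higher and 8 were lower. Their median log2 fold change was -0.11. Over all tested genes 16.7% were higher and 34.6% lower, with a median of -0.10, so both directions were common elsewhere too. Around the *Clec4* cluster *Gdf3* rose (2.09), as did *C3ar1* (0.27) and *Apobec1* (0.094), while *Dppa3* (-1.06) and *Slc2a3* (-0.54) fell. Inside it *Clec4b1*, a further DCIR relative, fell from 11.4 ± 1.25 to 5.29 ± 0.897 FPKM (log2 difference -0.99, limma adjusted p = 0.000114). Its neighbor *Clec4a2*, which fell too, shares stretches of 50 bases with *Clec4b1* and *Clec4a4*. Fragments from these stretches could have been counted for either gene. *Clec4a4* (0.21), *Foxj2* (-0.11), *Necap1* (-0.081), *Gm8430* (-0.033) and *Gm16556* (0.22) did not pass. *Clec4b2*, at 0.264 to 1.43 FPKM, was below the filter.

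Around *Clec12a* and *Clec7a*, the activation marker *Cd69* rose (log2 fold change 1.37) on 10 to 12 control and 96 to 108 CITED2-deficient fragments, and *Clec1b*, which encodes the podoplanin receptor CLEC-2, rose by 0.58. *Gabarapl1* (-0.54), *BC035044* (-0.76), *BC064078* (-0.52) and *Clec2i* (-0.39) fell, while *Clec2d* (0.15) and *2310001H17Rik* (-0.11) did not pass. Near *Clec5a*, *Ssbp1* fell (-0.26), and *Agk* (-0.28) and *E330009J07Rik* (-0.25) did not pass. The rise of *Apobec1* was lost without CITED2-deficient replicate 2 or any 1 control library, with adjusted p of 0.0657 to 0.0845. The fall of *Ssbp1* was lost without CITED2-deficient replicate 1 (adjusted p = 0.0808) or control replicate 2 (adjusted p = 0.0827), *Agk* passed without CITED2-deficient replicate 3 (adjusted p = 0.0179), and *Clec2d* passed without CITED2-deficient replicate 1 (adjusted p = 0.0161, all from limma).

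**Figure D4:**
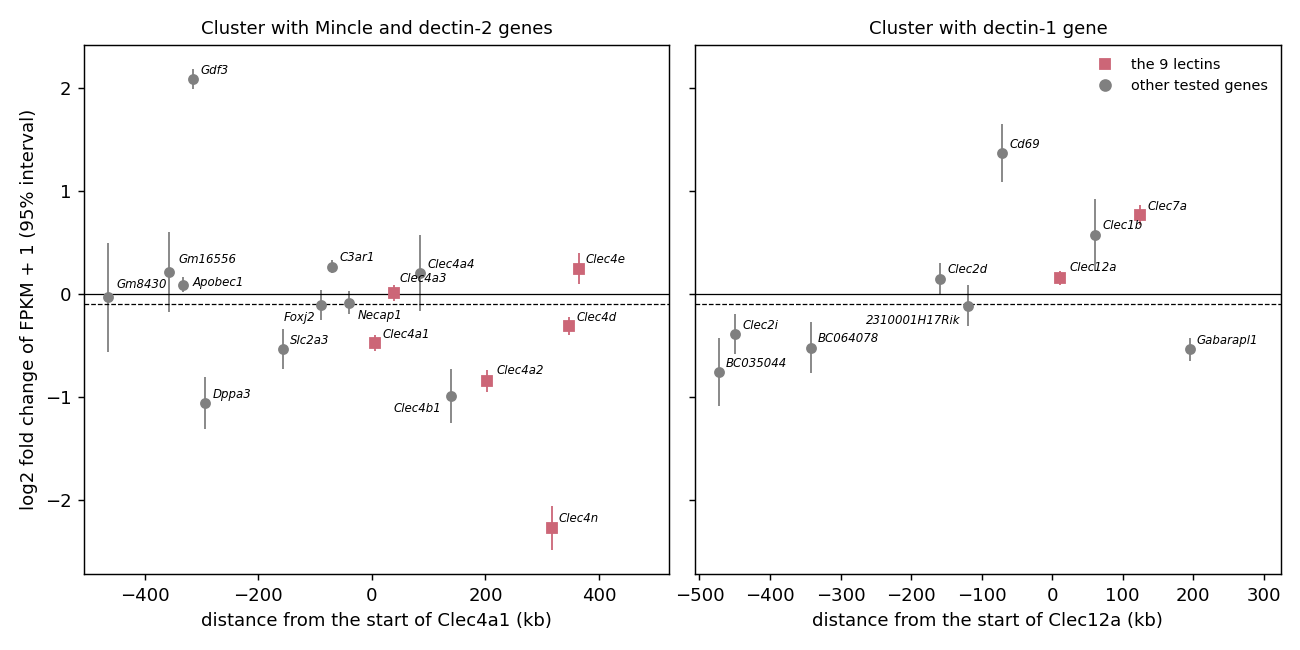
Log2 fold change of FPKM + 1 with 95% intervals (y axis) for lectin genes (red squares) and other tested genes (gray circles) by distance of the middle of each gene from the left end of the cluster in kb. In the left panel *Clec4n*, *Clec4d* and *Clec4e* lie next to each other at -2.27, -0.31 and 0.25. The dashed line is the median of all tested genes at -0.10.

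Signaling partners were read from a list of 37 genes in 5 roles, of which 33 were tested. Of these 12 were higher, 8 were lower and 13 did not pass, with a median log2 fold change of 0.023. Over all tested genes 51.3% passed, 16.7% higher and 34.6% lower, and the median was -0.10. Among adaptors and Src kinases, *Tyrobp*, the partner of CLEC5A, fell from 1285 ± 5.55 to 1094 ± 50.4 FPKM (log2 difference -0.23, limma adjusted p = 0.000473). *Hcst*, which encodes the adaptor DAP10, fell as well (-0.44), while the kinase gene *Lyn* rose (0.23). *Fcer1g*, the shared partner of dectin-2, MCL and Mincle, was at 1323 ± 53.2 and 1280.2 ± 40.1 FPKM and did not pass (log2 difference -0.047, limma adjusted p = 0.303). Its mean level was more than 3 times that of any of the 9 lectins in each group. The sign for *Fcer1g* was positive after median-ratio scaling, at 0.056 (limma adjusted p = 0.255). After quantile normalization *Fcer1g* passed the threshold as lower, at -0.087 (limma adjusted p = 0.0231).

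In the Syk axis the guanine exchange factor *Vav1* rose (0.16), and the kinases *Syk* (-0.083, limma adjusted p = 0.0337) and *Btk* (-0.16) fell. After median-ratio scaling *Syk* was at 0.020 and did not pass, and neither *Btk* nor *Inpp5d* then passed, nor did *Bcl10*, at -0.00086 (limma adjusted p = 0.987). In the CARD9 complex, *Bcl10* (-0.10) and *Rubcn* (-0.43), whose product Rubicon binds CARD9, fell, and the other 3 did not pass. Of the phosphatases, *Ptpn6* (0.092) and *Ptpn11* (0.12), whose products bind inhibitory motifs, rose and *Inpp5d*, the gene of SHIP-1, fell (-0.18). The call for *Syk* was lost without any 1 library other than CITED2-deficient replicate 2, that for *Bcl10* without any other than CITED2-deficient replicate 3, that for *Ptpn6* without any other than CITED2-deficient replicate 1, and that for *Ptpn11* without any of the 6. The highest limma adjusted p in these fits was 0.0964 for *Syk*, 0.134 for *Bcl10*, 0.124 for *Ptpn6* and 0.140 for *Ptpn11*.

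Of 16 genes that these receptors are known to turn on, 12 were tested. Of these 7 were higher, 1 was lower and 4 did not pass, with a median log2 fold change of 0.63. Over all tested genes 16.7% were higher and 34.6% lower. The cytokine gene *Tnf* rose from 5.37 ± 0.600 to 9.57 ± 0.401 FPKM (log2 difference 0.73, limma adjusted p = 0.000111), and *Il1b* rose by 0.72. The chemokine gene *Ccl4* went from 28.6 ± 0.950 to 58.1 ± 1.69 FPKM (1.00, limma adjusted p = 1.23e-07), and *Cxcl2* rose by 0.70. *Ptgs2*, the gene of cyclooxygenase-2, rose by 1.11 on 10 to 24 control and 105 to 131 CITED2-deficient fragments, and the transcription factor genes *Egr2* (0.56) and *Egr3* (0.70) rose too. *Nlrp3*, the inflammasome sensor, fell from 29.5 ± 0.772 to 14.7 ± 1.27 FPKM (-0.96, limma adjusted p = 2.54e-06). *Il6*, *Il12b*, *Il23a* and *Csf2* were below the filter, with at most 20 fragments in any library. Log2 fold changes of the 13 genes of the whole list that did not pass ran from -0.19 for *Fgr* to 0.26 for *Cxcl1*.

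**Figure D5:**
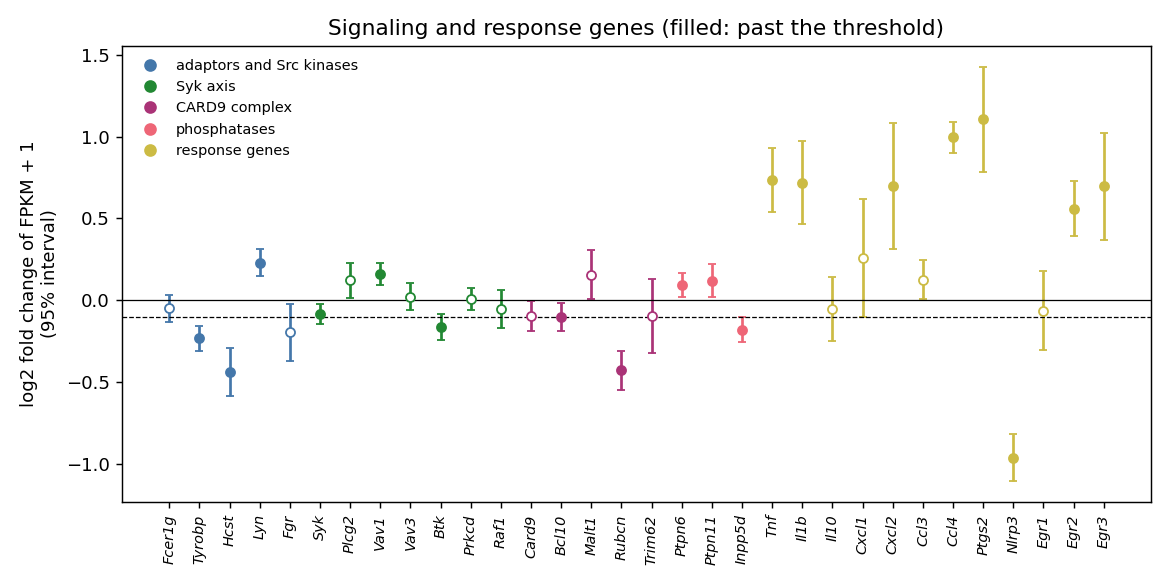
Log2 fold change of FPKM + 1 with 95% intervals (y axis) for tested genes of the signaling list, colored by role. Filled points passed an adjusted p of 0.05, and the dashed line is the median of all tested genes. Response genes reach from -0.96 for *Nlrp3* to 1.11 for *Ptgs2*, while the genes shown for the other 4 roles lie between -0.44 and 0.23.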

How the data were processed

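RNA of 6 BMDM libraries, 3 control and 3 CITED2-deficient, was depleted of ribosomal RNA, made into stranded libraries and sequenced by the authors. They mapped reads to mm10 with STAR, and Cuffdiff with GENCODE gave the deposited FPKM of each gene in each library. Versions and the annotation release were not given in the sources used here. FPKM is relative to all fragments of a library, so a shift in abundant genes can move the others.

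Fragment numbers were recovered from FPKM and mean transcript lengths of GENCODE vM21. They were whole within 0.02 in all 6 libraries for 96.1% of 22239 matched genes. Mean chi-square per gene between replicates was 2.24 to 5.93, so none was a duplicate.

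For genes whose mean FPKM was 1 or more, log2(FPKM + 1) was tested by limma 3.58.1 (R 4.3.3), fitted with a variance trend, with Benjamini-Hochberg adjustment over all of them. An exact permutation test of 3 against 3 libraries cannot fall below 0.1 and was not used. The steps were tested on simulated data. The rule for the members is a list of gene names and holds no measured value, but members and lists were chosen with earlier results of these data known. Named were all members, *Cited2*, list genes past the threshold, tested neighbors within 0.5 Mb, and markers past the threshold with a 2-fold difference or near 0. *Fcer1g*, other markers and genes below the filter were named after their values were seen. Some list genes are counted but not reported here.

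Alternatives were pseudocounts of 0.1 and 0.5, no filter on low values, a minimum mean FPKM of 5, median-ratio scaling, quantile normalization, no variance trend, a replicate block, array weights, leaving out each library, a fold of at least 2, non-overlapping groups, and limma-voom on recovered fragments. Protein sequences were not used here. Promoter windows came from RefSeq.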

Additional observations from a re-analysis of the deposited data

How the results depend on the processing

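All 7 lectin genes past the threshold stayed past it, with the same sign, in all 16 other fits. Median-ratio scaling gave 5 higher lectins and 4 lower signaling genes. Of all tested genes 2490 were then lower, against 4044 with FPKM as deposited. It turned the signs of *Fcer1g* (0.056), *Syk* (0.020), *Gm8430* (0.033) and *Necap1* (0.021). A fold of at least 2 left 0 lectins higher and 1 lower, 1 signaling gene higher and 0 lower, 2 neighbors higher and 1 lower, and 435 genes higher and 180 lower overall. A mean FPKM of at least 5 left 3 neighbors higher and 5 lower, since fewer genes were tested, and no filter gave 10 higher. With each library left out in turn, 3 to 4 lectins were higher and 4 lower. The log2 difference of *Clec4a3* then ran from -0.0061 to 0.036 and that of *Gm8430* from -0.18 to 0.19. The cause of these shifts was not tested.

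Over all tested genes, same-numbered libraries did not deviate together (correlations 0.0138, 0.00784 and 0.0402). Such correlations cannot tell whether these libraries share a batch that moved only some genes, and the labels tie them by number only. With a replicate block 4 lectins were higher and 4 lower, since *Clec5a* passed (adjusted p = 0.0168 from limma). Depth limits *Clec5a* most, with as few as 79 fragments in a library.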
